A study of Homo sapiens with 24 samples.

Results

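The comparison described here asks where forced SIRT6 expression acted differently in A549 cells than in H1299 cells. Both lines are long established in the study of human non-small cell lung cancer, A549 from an adenocarcinoma and H1299 from a lymph node metastasis of a large cell carcinoma. Its members are 18 of the 24 RNA-seq libraries of the series, 9 per line. In each line 6 libraries came from cells with a stable lentivirus for FLAG-tagged SIRT6, either wild type (WT, 3 libraries) or an acetylation-deficient mutant (K3R, 3 libraries), and 3 came from cells with the empty vector (Ctr). The acetylation-mimetic mutant K3Q makes up the other 6 libraries and is left out. WT and K3R were pooled as the active arm, and the quantity of interest was the log2 change of WT and K3R over Ctr in A549 minus the same change in H1299. A positive difference means a more upward change in A549, and a negative one a more upward change in H1299. All cells were grown in RPMI1640 with serum. The labels do not say whether a line is 1 clone.

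SIRT6 is a nuclear enzyme that uses NAD to remove acetyl and longer acyl groups from proteins, among them histones at gene promoters, enhancers and telomeres. It is best known for holding down glycolytic, NF-kB and ribosomal protein genes and for helping DNA repair. In lung cancer it has been described both as a brake on growth and as a factor that favours migration.

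Total gene counts ran from 16434492 to 18414547 in A549 libraries and from 16143239 to 22856407 in H1299 libraries. Within each group the libraries are numbered 1-1 (biological replicate 1, batch 1), 1-2 (biological replicate 1, batch 2) and 2-2 (biological replicate 2, batch 2). WT and K3R libraries of the same number were close to each other: counts over genes differed by a chi-square of 2.729 to 4.918 in A549 and 4.439 to 14.41 in H1299 per degree of freedom, against 15.84 to 69.81 for other pairs within 1 arm and line. The labels do not say that the 6 active libraries of a line are 6 separate cultures, and p-values may measure a spread that is in part technical. Counts are therefore also given with WT and K3R of the same number summed, which was decided after the libraries were compared. On the first principal component the 3 A549 libraries numbered 2-2 stood apart, at -53.58 to -47.23 against 8.64 to 37.88 for the other A549 libraries. The share of counts from mitochondrial genes was 6.04% to 7.73% in A549 and 2.31% to 3.73% in H1299. KRT7, a keratin of glandular epithelium, stood at 2345 to 3174 CPM (library total scaled to CPM, with no further factor) in A549 and at 1.02 to 3.36 CPM in H1299, and CDKN2A, which A549 is known to lack, at 1.30 CPM or less in A549 and at 104 to 128 CPM in H1299. The line markers thus fitted the labels.

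SIRT6 transcript was raised strongly in both lines. In A549 it stood at 1459, 2667 and 3022 CPM in WT and 1463, 2394 and 3464 CPM in K3R (libraries 1-1, 1-2 and 2-2, scaled by TMM as all CPM from here on), against 26.0, 23.7 and 33.5 CPM in Ctr. In H1299 the values were 2631, 2371 and 6353 CPM in WT and 4062, 2661 and 5715 CPM in K3R, against 43.5, 33.2 and 36.6 CPM in Ctr. Every active library lay far above every Ctr library of its line. The log2 change was 6.36 ± 0.39 (SE) in A549 and 6.70 ± 0.40 in H1299, with adjusted p = 8.39e-08 and 4.35e-08 (edgeR quasi-likelihood test, Benjamini-Hochberg over 17828 genes). Their difference, -0.34 ± 0.40, did not pass (adjusted p = 0.868). SIRT6 lies on chromosome 19 (GRCh38, 4174109 to 4182604, minus strand), and reads of the introduced copy fall on the same gene.

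The responses of the lines differed at 169 of 17828 genes tested (0.948%), 73 of them positive (0.409%) and 96 negative (0.538%), at an adjusted p under 0.05 in the edgeR quasi-likelihood test. Within the lines, SIRT6 expression went with a change of 53 genes in A549 (0.297%), 31 higher (0.174%) and 22 lower (0.123%), and of 1092 genes in H1299 (6.13%), 632 higher (3.54%) and 460 lower (2.58%). The median standard error of a log2 change was 0.182 in A549 and 0.183 in H1299. Both come from the same fit, which shares its estimate of spread between the lines, so these values do not compare the spread within each line. Of the 169 genes, 148 passed in H1299 alone, 8 in A549 alone, 2 in both lines in opposite directions (0.0112% of genes tested) and 11 in neither. The change in H1299 was the larger in size for 148 of the 169, and for 128 the fitted changes had opposite signs. The difference had the same sign at each of the 3 library numbers for 162. These signs come from the libraries that gave the calls, and the share over all genes is not given, so they are not independent support. The fit behind the 169, 53 and 1092 genes had a term for batch within each line but none for the library number. With the library number as a replicate block, 1052 genes passed for the difference (5.9%; 422 positive, 2.37%, and 630 negative, 3.53%), 698 in A549 (3.92%) and 3085 in H1299 (17.3%), and these held all 169, 53 and 1092. With WT and K3R of the same number summed, 7 of 18725 passed for the difference (0.0374%), 1 in A549 (SIRT6) and 251 in H1299. With both the sum and the block the counts were 364, 92 and 1579. Leaving out 1 library took the 169 to 67 (H1299 Ctr 2-2), 97 (H1299 Ctr 1-2) or 72 (A549 Ctr 1-1).

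Across genes the changes of the lines were weakly alike. Over the 17828 genes the log2 changes had a Pearson correlation of 0.178 and a Spearman correlation of 0.203, with the same sign at 57.88%. Over the 9937 genes with a mean of at least 5 CPM in both lines the values were 0.356, 0.282 and 59.72%. The lines share no library, genes are not independent replicates, and SIRT6 itself contributes to the Pearson values (0.172 and 0.306 without it). Genes called in H1299 had a median absolute log2 change of 0.19 in A549 and 0.87 in H1299, and 71.2% of them had the same sign in A549. Genes called in A549 had a median of 1.37 in A549 and 0.57 in H1299, and 75.5% had the same sign in H1299. Choosing genes by their call in a line raises their size in that line, so these medians do not measure a gap between the lines.

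**Figure D1:**
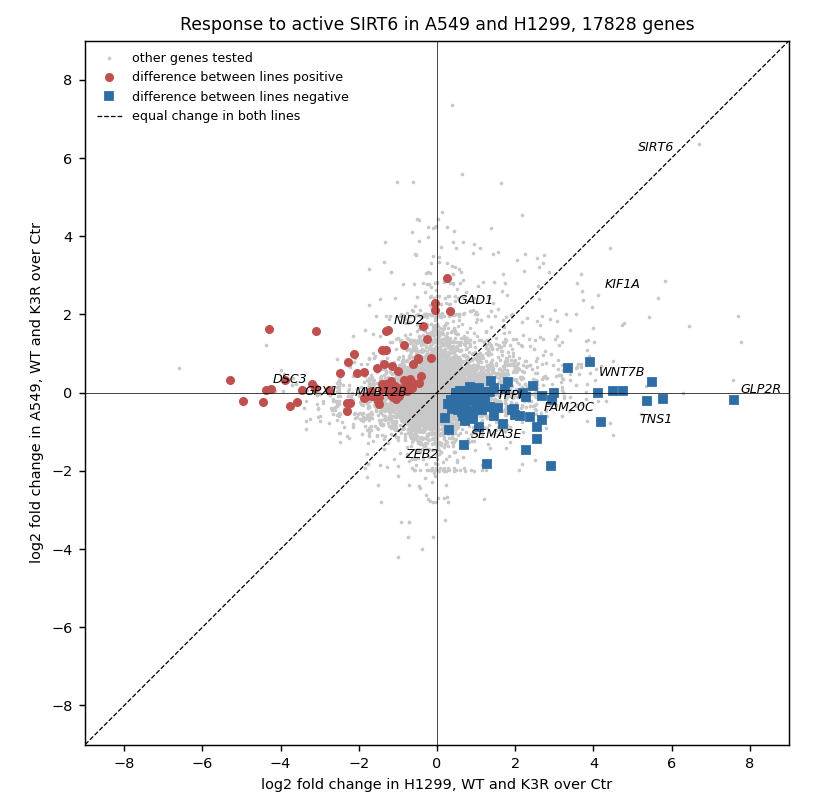
Log2 fold change of WT and K3R over Ctr in A549 (vertical axis) against H1299 (horizontal axis) for 17828 genes. Red circles are the 73 genes with a positive difference between lines and blue squares the 96 with a negative one, and 148 of these 169 lie farther from 0 along the H1299 axis than along the A549 axis.

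Among the strictest fits was that with WT and K3R of the same number summed to 3 active libraries per line. It kept 7 genes for the difference, all of them among the 169. Positive were MVB12B, a subunit of the ESCRT-I complex that sorts receptors in endosomes, SHROOM3, which drives apical constriction of epithelial cells, and RHOBTB1, which codes for an atypical GTPase. Negative were TFPI, the inhibitor of the tissue factor pathway of coagulation, FAM3C, a secreted factor linked to epithelial-mesenchymal transition, FAM20C, the Golgi kinase of secreted proteins, and COL5A1, a chain of fibrillar collagen V. The fit that kept them was chosen after seeing the data, so the 7 are a description. Libraries 1-1 and 1-2 are both biological replicate 1. With 1-1 and 1-2 summed instead, MVB12B and SHROOM3 kept their call, and RHOBTB1, TFPI, FAM3C, FAM20C and COL5A1 lost it.

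MVB12B (chromosome 9, 126326849 to 126507041, plus strand) had 21.9, 24.3 and 20.2 CPM in WT and 21.9, 20.4 and 24.4 CPM in K3R of A549, against 26.4, 25.7 and 28.4 CPM in Ctr. In H1299 MVB12B had 2.31, 2.09 and 2.34 CPM in WT and 2.08, 2.96 and 1.40 CPM in K3R, against 10.2, 12.1 and 10.2 CPM in Ctr. Active and Ctr libraries did not overlap in either line, but the log2 change in A549, -0.27, did not pass (adjusted p = 0.644), whereas H1299 was 4.90-fold lower (adjusted p = 1.52e-07). The difference was 2.02 ± 0.21 (SE, adjusted p = 0.000225; edgeR quasi-likelihood test). SHROOM3 (chromosome 4, 76435100 to 76783253, plus strand) had 29.8, 28.7 and 33.0 CPM in WT and 36.7, 29.6 and 38.2 CPM in K3R of A549, against 32.7, 32.1 and 30.9 CPM in Ctr. In H1299 SHROOM3 had 2.26, 2.30 and 2.50 CPM in WT and 1.60, 1.89 and 2.51 CPM in K3R, against 6.14, 6.83 and 7.96 CPM in Ctr. The A549 groups overlapped and the H1299 groups did not. SHROOM3 differed between the lines by 1.72 ± 0.19 (adjusted p = 0.000259) and passed in all 34 alternatives run for it. RHOBTB1 (chromosome 10, 60869438 to 61001440, minus strand) averaged 22.4 ± 7.50 CPM in active and 29.8 ± 5.25 CPM in Ctr cells of A549, and 1.32 ± 0.637 and 6.47 ± 0.669 CPM in those of H1299 (SD, n = 6 and 3). Its groups overlapped in A549 and not in H1299. The RHOBTB1 difference of 1.85 ± 0.32 (adjusted p = 0.0085) was lost without A549 Ctr 1-1.

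TFPI (chromosome 2, 187464230 to 187565760, minus strand) had 47.7, 28.0 and 28.4 CPM in WT and 54.4, 30.4 and 26.6 CPM in K3R of A549, against 54.4, 40.1 and 39.5 CPM in Ctr. In H1299 TFPI had 17.8, 20.3 and 20.4 CPM in WT and 16.9, 17.4 and 23.4 CPM in K3R, against 5.75, 8.37 and 8.99 CPM in Ctr. It was 2.54-fold higher in H1299 with SIRT6 (adjusted p = 9.14e-06), without overlap, while A549 stood at -0.36 on the log2 scale (adjusted p = 0.239, and 0.0325 with the replicate block). Its difference, -1.71 ± 0.16, had the lowest adjusted p of the genes tested (8.64e-05, edgeR quasi-likelihood test). Exons of TFPI overlap an antisense gene, and whether reads were counted by strand is not given in the sources used here. FAM3C (chromosome 7, 121348851 to 121396364, minus strand) stood at 29.7 to 40.0 CPM in active and 32.3 to 39.1 CPM in Ctr libraries of A549. In H1299 FAM3C had 137, 111 and 128 CPM in WT and 118, 117 and 104 CPM in K3R, against 67.8, 57.7 and 48.5 CPM in Ctr, a difference of -1.12 ± 0.13. FAM20C (chromosome 7, 192969 to 260745, plus strand) averaged 56.3 ± 6.203 CPM in active and 56.9 ± 14.02 CPM in Ctr cells of A549. In H1299 FAM20C had 4.53, 4.55 and 10.8 CPM in WT and 5.07, 3.54 and 4.31 CPM in K3R, against 0.303, 0.0569 and 0.542 CPM in Ctr (difference -4.13 ± 0.53, adjusted p = 0.00099). COL5A1 (chromosome 9, 134641774 to 134844843, plus strand) averaged 105 ± 25.0 CPM in active and 162 ± 57.0 CPM in Ctr cells of A549, and 3.37 ± 2.09 and 0.657 ± 0.705 CPM in those of H1299. Its groups overlapped in both lines, and the difference was -2.99 ± 0.51.

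**Figure D2:**
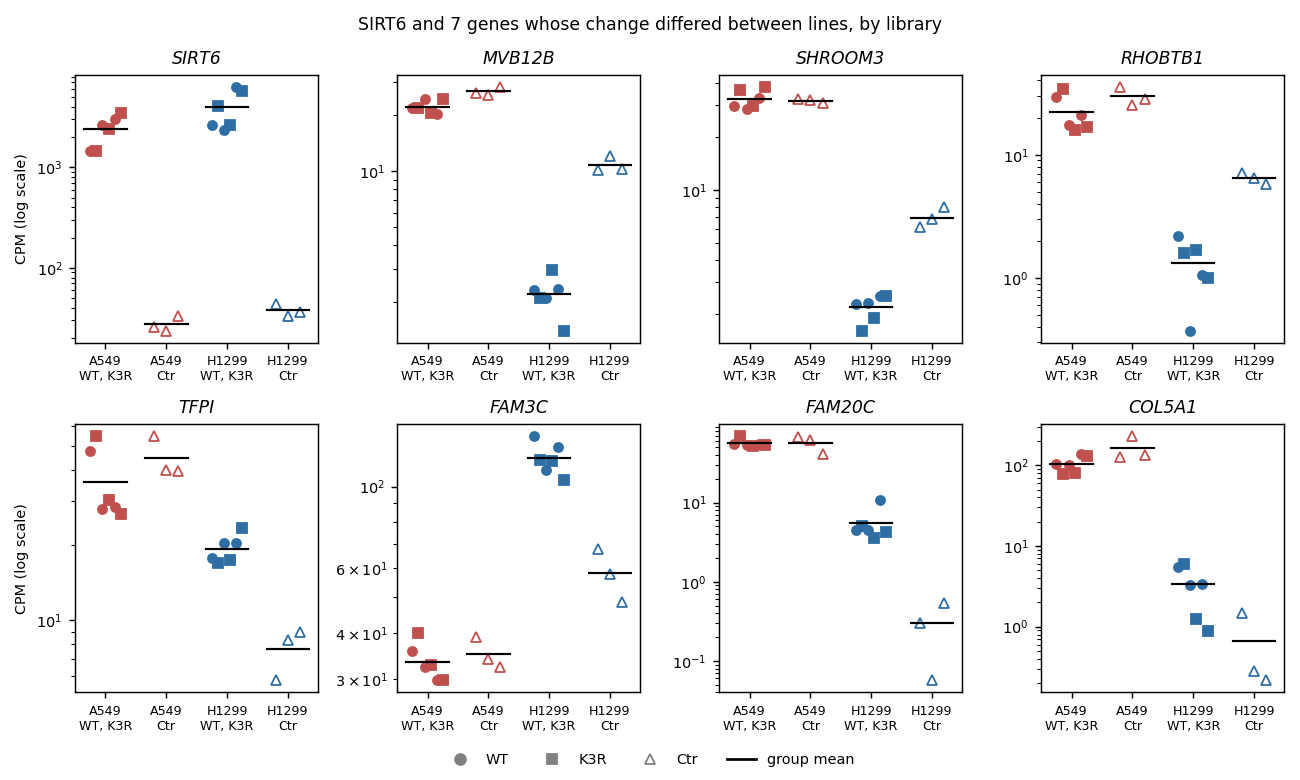
CPM (log scale) of SIRT6 and of the 7 genes by library, in active cells (WT circles, K3R squares) and Ctr cells (open triangles) of A549 and H1299; horizontal lines are group means. SIRT6 was higher with the transgene in both lines, while the other panels show the H1299 groups apart, COL5A1 excepted, and the A549 groups overlapping, MVB12B excepted.

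Promoter windows from RefSeq (GRCh38.p14, 250 bases before to 50 after the start) are shown for the 4 of these genes with a window and at least 5 CPM in Ctr cells of both lines, to let the falling and rising genes be compared at their starts. Each is written 5′ to 3′ on the gene's strand, and capitals mark CACGTG (E-box) or ACGTG (core of the hypoxia response element) on either strand. ACGTG overlaps every E-box. The windows are chr9:126326579-126326878, chr4:76434979-76435278, chr2:187554386-187554685 and chr7:121396259-121396558, and that of TFPI starts within the gene as GENCODE 29 draws it.
MVB12B: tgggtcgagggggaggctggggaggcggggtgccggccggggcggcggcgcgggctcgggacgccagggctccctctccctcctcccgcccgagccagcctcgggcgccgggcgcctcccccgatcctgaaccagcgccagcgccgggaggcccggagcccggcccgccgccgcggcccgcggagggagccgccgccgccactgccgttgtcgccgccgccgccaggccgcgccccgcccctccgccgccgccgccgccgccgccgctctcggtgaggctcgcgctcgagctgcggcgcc
SHROOM3: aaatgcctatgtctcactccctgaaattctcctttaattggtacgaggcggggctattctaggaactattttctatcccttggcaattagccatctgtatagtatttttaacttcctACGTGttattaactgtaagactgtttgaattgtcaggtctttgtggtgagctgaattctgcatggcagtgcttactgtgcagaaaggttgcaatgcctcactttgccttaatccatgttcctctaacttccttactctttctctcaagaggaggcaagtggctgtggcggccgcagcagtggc
TFPI: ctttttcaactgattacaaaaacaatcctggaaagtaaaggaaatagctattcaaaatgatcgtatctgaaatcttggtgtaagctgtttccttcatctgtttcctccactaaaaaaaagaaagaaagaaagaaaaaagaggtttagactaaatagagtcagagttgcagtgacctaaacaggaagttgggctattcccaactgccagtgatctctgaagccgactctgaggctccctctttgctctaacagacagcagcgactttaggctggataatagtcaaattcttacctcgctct
FAM3C: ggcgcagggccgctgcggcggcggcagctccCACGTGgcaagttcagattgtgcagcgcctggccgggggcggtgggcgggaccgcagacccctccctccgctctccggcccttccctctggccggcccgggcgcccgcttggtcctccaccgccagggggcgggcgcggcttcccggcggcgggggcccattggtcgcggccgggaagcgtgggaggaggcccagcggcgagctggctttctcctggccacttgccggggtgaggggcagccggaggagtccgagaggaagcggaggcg
MVB12B and SHROOM3, both lower with SIRT6 in H1299, had unlike windows, with 53 and 5 CpG dinucleotides and 85.0% and 44.3% G or C. TFPI and FAM3C, both higher, had 4 and 35 CpG and 39.3% and 77.3%. The FAM3C window held 1 E-box and that of SHROOM3 an ACGTG outside an E-box, and neither TGANTCA (AP-1) nor the NF-kB motif was in any of the 4. Over the 8673 tested genes with a window, 10.1% held CACGTG, 26.7% ACGTG, 4.67% TGANTCA and 0.634% the NF-kB motif. For the 44 of 73 positive genes with a window the shares were 15.9%, 31.8%, 0% and 0%, and for the 44 of 96 negative genes 18.2%, 25%, 2.27% and 0%. These shares are a description without a test.

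A wider set, also chosen after the values were seen, took the 10 positive and the 10 negative genes of lowest p with at least 5 CPM in an arm of each line. BMP6, a bone morphogenetic protein, had 11.4 to 25.2 CPM in active and 5.76 to 20.1 CPM in Ctr libraries of A549, and 8.12 to 12.96 CPM and 20.3 to 25.3 CPM in those of H1299 (difference 1.83 ± 0.27). Only the H1299 groups were apart, and the log2 change of BMP6 in A549, 0.67, missed the threshold (adjusted p = 0.202; with the replicate block, 0.0349). The kinase gene SGK1 averaged 25.8 ± 7.72 and 22.7 ± 7.20 CPM in active and Ctr cells of A549, and 31.4 ± 5.04 and 56.0 ± 12.2 CPM in those of H1299. MGMT, which repairs alkylated guanine, averaged 9.68 ± 1.46 and 11.3 ± 1.62 CPM in A549, and 5.75 ± 0.809 and 16.3 ± 3.28 CPM in H1299, in the same order. TNS3, a tensin of focal adhesions, stood at 725 and 734 CPM in A549 and at 4.67 and 10.5 CPM in H1299. The class I antigen gene HLA-B averaged 18.1 ± 5.39 and 15.2 ± 2.92 CPM in A549, and 115 ± 5.49 and 183 ± 15.6 CPM in H1299, and is uncertain, since its annotated exons overlap those of HLA-C and the sharing of reads was not measured. Among genes higher with SIRT6 in H1299, PDGFA, a growth factor for mesenchymal cells, averaged 27.0 ± 2.49 and 27.1 ± 3.42 CPM in active and Ctr cells of A549, and 8.62 ± 2.37 and 1.88 ± 1.39 CPM in those of H1299. The vesicle motor gene MYO5B averaged 17.8 ± 4.26 and 14.6 ± 4.97 CPM in A549, and 27.5 ± 6.19 and 7.82 ± 1.17 CPM in H1299. ZMIZ1, a coregulator of transcription, averaged 171 ± 23.1 and 207 ± 23.8 CPM in A549, and 73.4 ± 13.96 and 49.6 ± 6.61 CPM in H1299. Over the set, 9 of the 10 positive and all 10 negative genes passed in H1299 (6.13% of all genes). In A549 1 of each passed (0.297% of all genes). The genes were chosen by the difference in the same fit, which largely sets these counts, so they are not a result about the set.

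By the size of the difference, the 10 largest negative genes were off or low in H1299 Ctr cells, present in A549, and higher in H1299 with SIRT6. The choice of genes largely sets this pattern, so it is a description: a gene had to reach a mean of 5 CPM in some group, and 5 of the 10 (GLP2R, JAKMIP3, VAV1, GASK1B and SERPINF2) reached it in A549 only. In 9 of the 10 the H1299 Ctr mean was under 1 CPM, and in 9 the A549 Ctr mean was above the H1299 active mean. In all 10 the H1299 groups did not overlap, which the choice by size of the difference favours. The share of all genes without overlap was not counted, so this count is not a result about the 10. None of the 10 passed in A549 by edgeR or DESeq2 (2 had an unadjusted p under 0.05 in edgeR). Their log2 changes there were at most 0.87 in size, against 2.55 to 7.59 in H1299. GLP2R, the receptor of glucagon-like peptide 2, had 21.6, 18.2 and 27.1 CPM in WT and 27.7, 18.3 and 31.6 CPM in K3R of A549, against 29.9, 18.8 and 34.1 CPM in Ctr. In H1299 GLP2R had 1.00, 1.87 and 2.00 CPM in WT and 1.21, 0.291 and 1.75 CPM in K3R, against 0 in each Ctr library. Its 158 active counts against 0 make it at least 25.9-fold higher, taking 3 counts over the Ctr group as the floor (counting error only). JAKMIP3 likewise had 37 counts in active and 0 in Ctr cells of H1299, at least 6.05-fold higher, and lost its call without H1299 Ctr 2-2. TNS1, a tensin that links actin to focal adhesions, had 6.53, 11.4 and 10.6 CPM in WT and 12.0, 10.7 and 8.39 CPM in K3R of H1299, against 0.389, 0 and 0.271 CPM in Ctr. TNS1 in A549 ranged from 1.60 to 7.59 CPM in active and 1.88 to 13.1 CPM in Ctr libraries, and the difference was -5.59 ± 0.72. VAV1, a guanine nucleotide exchange factor of blood cells, averaged 15.6 ± 2.86 and 15.3 ± 4.76 CPM in active and Ctr cells of A549, and had 1.498 to 4.06 CPM and 0 to 0.216 CPM in those of H1299. WNT7B, a Wnt ligand of lung epithelium, averaged 376 ± 59.9 and 361 ± 134 CPM in A549, and had 1.04 to 14.5 CPM and 0.171 to 0.325 CPM in H1299 (difference -4.44 ± 0.74, lost without H1299 Ctr 2-2). SFMBT2, a Polycomb group gene, had 17.3 to 34.2 CPM and 28.2 to 57.9 CPM in A549, and 2.60 to 8.90 CPM and 0.379 to 1.38 CPM in H1299. SERINC2 averaged 25.5 ± 5.81 and 24.8 ± 1.499 CPM in A549, and had 9.09 to 21.9 CPM and 1.08 to 2.59 CPM in H1299. The remaining GASK1B and SERPINF2 differed by -3.42 and -3.14, and SERPINF2 kept its call in 8 of the 18 fits that leave out 1 library.

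Levels of these genes in H1299 can be set beside genes that mark A549. As a percent of the A549 Ctr mean (CPM of library totals), KRT7 stood at 0.0622% in active and 0.0801% in Ctr cells of H1299, KRT19 at 0.0179% and 0.0615%, and EPCAM at 2.3% and 2.91%. GLP2R stood at 5.38% and 0%, WNT7B at 1.74% and 0.0703%, VAV1 at 17.3% and 0.52%, FAM20C at 10.7% and 0.602% and TNS1 at 172% and 3.92%. GLP2R, WNT7B, VAV1, FAM20C and TNS1 had been chosen for a higher level in active cells of H1299 and the keratins and EPCAM had not, so the contrast between them is not a result.

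The 10 largest positive differences were less firm. All 10 passed in H1299 and 1 in A549 (6.13% and 0.297% of all genes), which the choice by size of the difference largely sets. Of the 10, 7 were under 1 CPM in active and 5 in Ctr cells of H1299. The H1299 groups did not overlap for 6 of them. The share of all genes without overlap was not counted, so this count is not a result about the 10. For DSC3, a desmosomal cadherin, 2 counts in active and 30 in Ctr cells of H1299 carried the difference, and for GPX1, a glutathione peroxidase, the 6 active libraries held 26 counts, against 169 in Ctr 1-1 and 3 and 10 in the other Ctr libraries. Both calls were lost without H1299 Ctr 1-1. SLFN11, METTL7B, SLC19A3 and VSTM1 kept their call in 3, 1, 4 and 3 of the 18 fits that leave out 1 library. ZNF704, a zinc finger gene, rested on more counts: it had 4.39, 2.67 and 2.34 CPM in WT and 3.25, 4.37 and 1.40 CPM in K3R of H1299, against 17.4, 25.9 and 18.6 CPM in Ctr. ZNF704 in A549 ranged from 2.71 to 15.6 CPM in active and 4.18 to 17.8 CPM in Ctr libraries (difference 2.83 ± 0.55, lost without H1299 Ctr 1-2). ALDH1A3, which makes retinoic acid, had 30.8, 57.2 and 39.9 CPM in WT and 26.9, 56.6 and 41.3 CPM in K3R of A549, against 22.2, 26.6 and 22.9 CPM in Ctr. In H1299 ALDH1A3 had at most 0.261 CPM in active and 0.908 CPM in Ctr libraries. The log2 change of ALDH1A3 in A549, 0.77, missed the threshold (adjusted p = 0.166; with the replicate block, 0.00261), and its difference of 3.04 ± 0.58 was lost without H1299 Ctr 1-1 or Ctr 2-2. BACH2, a transcriptional repressor of the basic leucine zipper class, differed by 2.41, kept its call in 12 of these 18 fits and stood at 1.39 CPM in active and 5.14 CPM in Ctr cells of H1299.

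**Figure D3:**
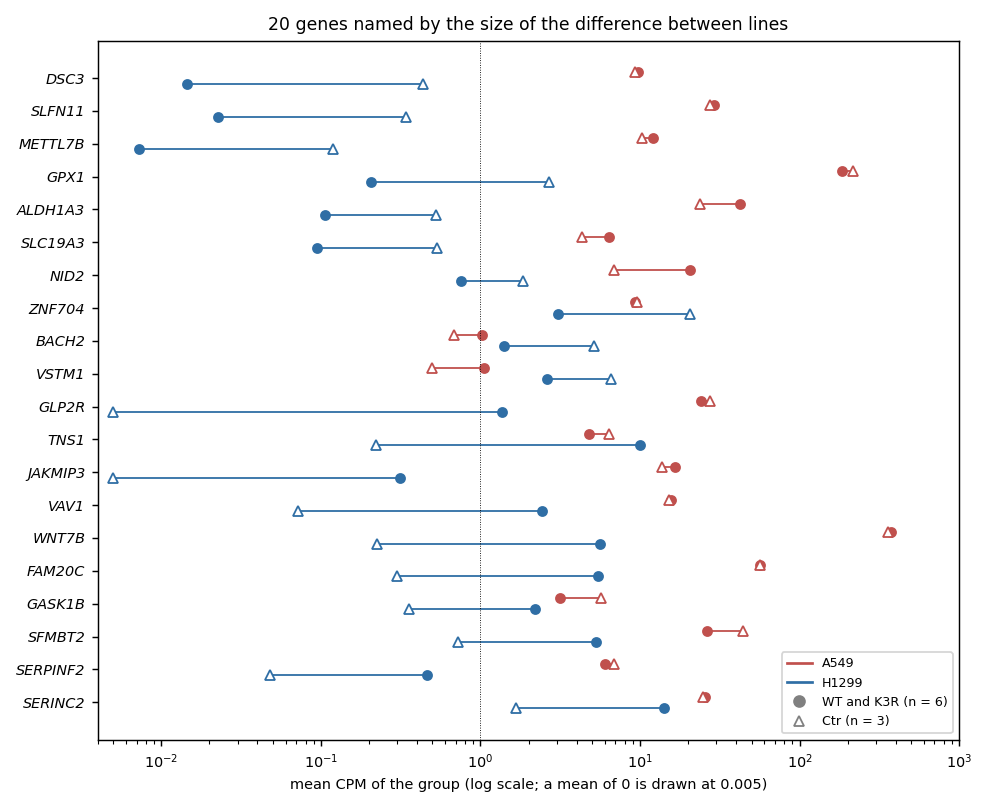
Group mean CPM (log scale, a mean of 0 drawn at 0.005) of the 10 largest positive and 10 largest negative genes, in active and Ctr cells of A549 and H1299. For 9 of the 10 negative genes the H1299 Ctr mean lies under 1 CPM, and no log2 change of these 10 in A549 exceeds 0.87 in size.

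NID2 and SEMA3E passed in both lines in opposite directions. NID2, the basement membrane protein nidogen-2 (chromosome 14, 52004803 to 52069228, minus strand), had 20.3, 21.7 and 16.96 CPM in WT and 26.1, 21.7 and 15.9 CPM in K3R of A549, against 6.78, 4.67 and 9.10 CPM in Ctr. In H1299 NID2 had 0.914, 0.856 and 1.45 CPM in WT and 0.520, 0.437 and 0.350 CPM in K3R, against 2.42, 1.59 and 1.52 CPM in Ctr. The groups did not overlap in either line, and the log2 change was 1.57 ± 0.28 in A549 (adjusted p = 0.0202) and -1.29 ± 0.34 in H1299 (adjusted p = 0.0297). SEMA3E, a secreted semaphorin that binds plexin D1 (chromosome 7, 83363238 to 83649113, minus strand), had 2.74, 2.44 and 1.72 CPM in WT and 3.21, 2.02 and 1.94 CPM in K3R of A549, against 4.87, 5.51 and 7.22 CPM in Ctr. In H1299 SEMA3E had 21.1, 27.9 and 23.5 CPM in WT and 19.7, 26.4 and 22.8 CPM in K3R, against 10.98, 19.1 and 14.2 CPM in Ctr. It was lower in A549 (log2 -1.34 ± 0.19) and higher in H1299 (log2 0.69 ± 0.17), again without overlap. The differences, 2.86 ± 0.44 for NID2 and -2.03 ± 0.25 for SEMA3E, kept their call in all 18 fits that leave out 1 library and lost it with WT and K3R of the same number summed. The opposite calls within the lines were less firm for NID2, which passed in both lines in 8 of the 18 fits, than for SEMA3E, which did in 16. The H1299 call of NID2 was lost without any 1 of 7 H1299 libraries (each Ctr, each K3R and WT 1-1) and its A549 call without Ctr 1-1, Ctr 1-2 or K3R 1-1 of A549. SEMA3E lost its H1299 call without Ctr 1-1 or Ctr 2-2, and neither gene passed in opposite directions with WT and K3R summed. Exons of NID2 overlap RTRAF on the other strand.

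Of the 169 genes, 8 passed in A549 and not in H1299. FOXC1, a forkhead factor, had 30.7, 48.8 and 32.0 CPM in WT and 29.3, 47.2 and 28.7 CPM in K3R of A549, against 23.0, 19.7 and 15.9 CPM in Ctr (log2 0.87, adjusted p = 0.0435), without overlap. In H1299 FOXC1 averaged 21.2 ± 3.81 and 29.7 ± 3.68 CPM (log2 -0.49, adjusted p = 0.0924, and 0.00305 with the replicate block). KIF5C, a neuronal kinesin, averaged 4.99 and 1.93 CPM in active and Ctr cells of A549 and 22.6 and 27.0 CPM in those of H1299. GAD1, which makes the transmitter GABA, averaged 1.34 and 0.307 CPM in A549 and 23.3 and 18.6 CPM in H1299. GLB1L2 averaged 14.9 and 7.99 CPM in A549 and 34.5 and 38.6 CPM in H1299. MAN1A1, MIR9-3HG and GLB1L3 were also higher in A549, each at or under 1.15 CPM there, and RTL8B was lower, at 5.57 and 10.8 CPM in A549 and 28.5 and 23.2 CPM in H1299. Each of these 8 except FOXC1 had its higher level in H1299, whatever the arm.

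In both lines and the same direction, 16 genes passed (0.0897%), SIRT6 included, which is 30.2% of the A549 calls and 1.47% of the H1299 calls. None of the 16 was among the 169 in the edgeR test, although 7 of them reached an unadjusted p under 0.05 for the difference (1861 of all genes) and DESeq2 called 2. KIF1A, a kinesin of synaptic vesicles, had 27.3, 39.1 and 68.8 CPM in WT and 25.6, 36.5 and 71.5 CPM in K3R of A549, against 5.39, 6.61 and 11.2 CPM in Ctr. In H1299 KIF1A had 31.7, 29.05 and 52.9 CPM in WT and 34.8, 22.1 and 42.0 CPM in K3R, against 2.29, 0.797 and 2.98 CPM in Ctr. Its difference of -1.60 missed the threshold (adjusted p = 0.152; with the replicate block, 7.9e-05). LSR, a receptor of tricellular junctions, averaged 51.2 ± 8.30 and 19.95 ± 3.52 CPM in active and Ctr cells of A549, and 94.9 ± 6.60 and 53.3 ± 11.8 CPM in those of H1299. ZEB2, a repressor of epithelial genes, had 0.913 to 2.73 CPM and 3.76 to 8.13 CPM in A549, and 17.02 to 23.6 CPM and 34.97 to 47.2 CPM in H1299, with log2 changes of -1.87 ± 0.27 and -0.999 ± 0.21. The ZEB2 difference of -0.87 missed the threshold (adjusted p = 0.358; with the replicate block, 0.0264), and its exons overlap ZEB2-AS1. The reductase gene DHRS2 and ATP8B3 were also higher in both lines, and NID1, the partner nidogen, was lower in both (log2 -0.86 in A549 and -0.50 in H1299).

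**Figure D4:**
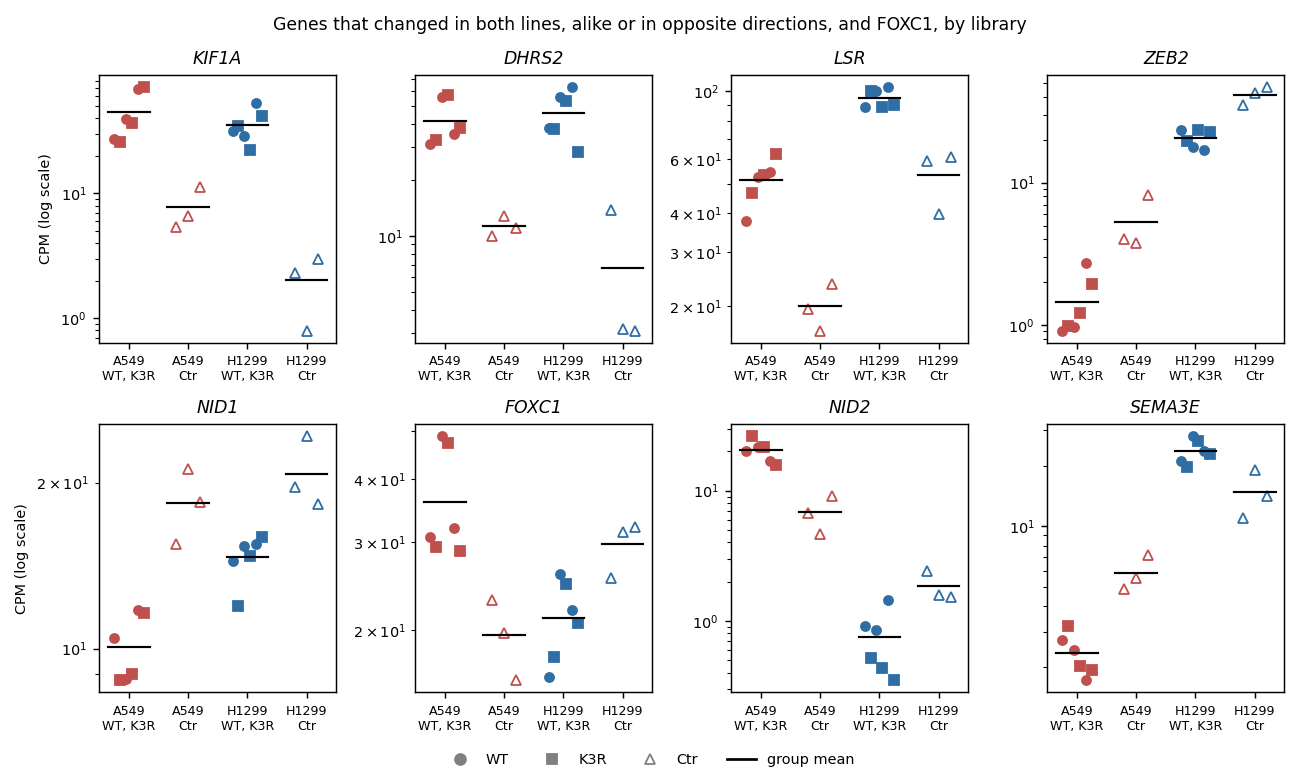
CPM (log scale) by library of genes that changed in the same direction in both lines (KIF1A, DHRS2, LSR, ZEB2, NID1), of FOXC1, and of NID2 and SEMA3E, which changed in opposite directions; symbols mark WT, K3R and Ctr libraries and horizontal lines group means. For NID2 and SEMA3E the active libraries lie on opposite sides of Ctr in the lines.

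Of 42 gene lists, chosen with earlier results of these data known, 15 had a member among the 169. That choice can raise the share of a list that passes, so the shares given for this and the following lists are a description without a test. Among basement membrane genes, which form the sheet under epithelia, 4 of 15 tested passed for the difference (26.7%), against 0.948% of all genes. NID2 and LAMC3, a laminin chain, were positive, and LAMA5, another laminin chain, and HSPG2, the proteoglycan perlecan, were negative. LAMA5 stood at 101 ± 13.8 CPM in active and 52.5 ± 4.39 CPM in Ctr cells of H1299 (difference -0.99 ± 0.15), and its exons overlap antisense genes. LAMC3 differed by 2.09 ± 0.42, at 13.4 and 7.94 CPM in A549 and 4.56 and 11.7 CPM in H1299. HSPG2 differed by -0.68 ± 0.14 and lost its call without any of 3 Ctr libraries (H1299 Ctr 1-2, H1299 Ctr 2-2 and A549 Ctr 1-2). Within A549, 2 members were higher (NID2 and LAMB3, LAMB3 at 81.3 and 34.1 CPM) and NID1 was lower, against 0.297% of all genes called there, and within H1299 4 were higher and 3 lower, against 6.13%. The list's median difference was -0.15, against 0.01 over all genes, and with the replicate block 3 were positive and 4 negative (2.37% and 3.53% of all genes).

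Semaphorins, plexins and neuropilins are guidance ligands and their receptors, with roles in vessels and tumour spread. For the difference 5 of 28 tested passed, 1 positive and 4 negative, against 0.948% of all genes. Within A549 SEMA3E alone passed (0.297% of all genes), and within H1299 7 were higher and 2 lower (6.13%). Of the ligands, SEMA4D averaged 20.9 ± 2.58 and 19.95 ± 4.93 CPM in active and Ctr cells of A549, and 3.74 ± 0.635 and 9.03 ± 0.763 CPM in those of H1299 (difference 1.34 ± 0.23). SEMA3F differed by -1.94 ± 0.42 though neither line passed, at 9.40 and 17.3 CPM in A549 and 3.08 and 1.40 CPM in H1299. Of the receptors, PLXND1, which SEMA3E binds, stood at 136 and 145 CPM in A549 and 34.8 and 18.8 CPM in H1299 (difference -0.96 ± 0.18, lost without A549 Ctr 1-1, H1299 Ctr 1-2 or H1299 Ctr 2-2), and PLXNB2 at 329 and 331 CPM in A549 and 157 and 112 CPM in H1299. The list's median difference was -0.42, and with the replicate block 2 members were positive and 9 negative (2.37% and 3.53% of all genes).

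**Figure D5:**
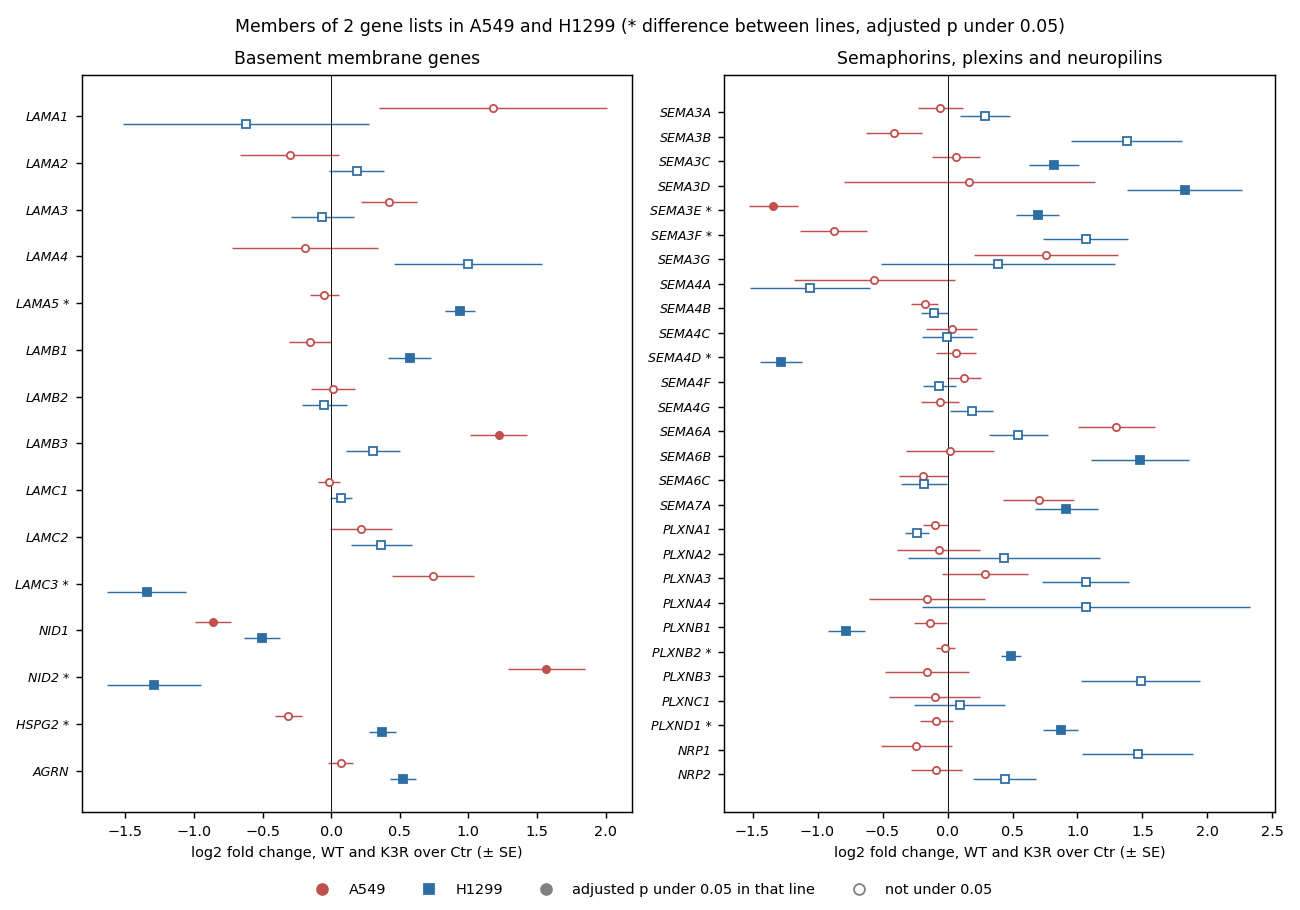
Log2 fold change of WT and K3R over Ctr with its standard error in A549 and H1299 for the tested basement membrane genes and the semaphorins, plexins and neuropilins. Filled symbols have an adjusted p under 0.05 within the line and an asterisk marks genes whose difference between the lines passed, which are 4 of 15 and 5 of 28.

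Other matrix and signalling lists had 1 or 2 members each, all read against 0.948% of all genes. Of 33 collagens and matrix proteins, COL5A1 and FBN1, the microfibril protein fibrillin-1, passed as negative, FBN1 at 27.6 and 33.4 CPM in A549 and 74.4 and 47.7 CPM in H1299, and with the replicate block 1 was positive and 6 negative (2.37% and 3.53% of all genes). Summed fibroblast markers stood at 20.96 to 26.37 CPM in active and 14.24 to 25.61 CPM in Ctr libraries of A549, and at 3.657 to 11.38 CPM and 2.261 to 6.204 CPM in those of H1299. Of the 10 markers, 9 were under 1 CPM in every active and 8 in every Ctr library of H1299, DPT was at 0 in all 18 libraries, and the part of these sums in the matrix values was not tested. Of 22 TGF-beta genes, the ligand TGFB2 stood at 63.3 and 80.6 CPM in A549 and 17.4 ± 5.42 and 7.40 ± 1.64 CPM in H1299 (difference -1.54 ± 0.29, lost without H1299 Ctr 1-2 or Ctr 2-2), and the receptor TGFBR2 differed by -0.62 ± 0.13, which was lost without H1299 Ctr 1-2, A549 Ctr 1-1 or A549 Ctr 1-2. With the replicate block 4 TGF-beta genes passed, all negative (3.53% of all genes). BMPR1B, a BMP receptor, differed by 1.199 ± 0.27 and kept its call in 3 of the 18 fits that leave out 1 library. PRICKLE1, of planar cell polarity, stood at 4.45 and 7.34 CPM in A549 and 7.84 and 1.79 CPM in H1299 (difference -2.71 ± 0.43), and the growth factor receptor FGFR3 at 13.2 and 17.9 CPM in A549 and 13.4 and 3.28 CPM in H1299. Of 21 retinoic acid genes, ALDH1A3 was positive and DHRS3, which reduces retinal, negative (-1.96 ± 0.39). The calls of FGFR3 and DHRS3 were both lost without any of A549 Ctr 1-1, A549 Ctr 1-2, H1299 Ctr 1-2 and H1299 Ctr 2-2.

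Other lists held single members. A single call is too few to set a list apart from the 0.948% of all genes, so these counts are not results about the lists. MGMT was the 1 of 44 DNA repair genes, HLA-B of 19 class I antigen genes, SFMBT2 of 33 Polycomb genes, and TFPI of both 29 matrix proteases and inhibitors and 23 complement and coagulation genes. NMNAT3, an NAD-making enzyme, was the 1 of 10 NAD synthesis genes. It stood at 2.11 and 1.98 CPM in A549 and 2.35 and 6.30 CPM in H1299. Its difference of 1.51 ± 0.32 was kept in 11 of the 18 fits that leave out 1 library. None of 35 glycolysis and hypoxia genes, 29 NF-kB genes or 76 ribosomal proteins passed for the difference in the edgeR fit. At an unadjusted p under 0.05 there were 7, 10 and 0 in these lists, and DESeq2 called 1, 1 and 0. With the replicate block 7 NF-kB genes passed, all positive (2.37% of all genes), 3 glycolysis and hypoxia genes were positive and 3 negative, and no ribosomal protein passed. The NF-kB list's median difference was 0.39. HIF1A, the hypoxia factor, was lower in A549 (171 and 240 CPM, adjusted p = 0.0202) and stood at 96.9 and 95.5 CPM in H1299, but its difference of -0.52 did not pass (adjusted p = 0.0644; with the replicate block it did, adjusted p = 0.00203). Of 39 epithelial genes none passed for the difference in edgeR (12 at an unadjusted p under 0.05, and 1 called by DESeq2), and with the replicate block 3 were positive and 3 negative (2.37% and 3.53% of all genes).

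The fitted changes with WT and with K3R were close at some genes and apart at others. For MVB12B the log2 change over Ctr in H1299 was -2.32 with K3R and -2.27 with WT, and for TFPI 1.34 and 1.36. For ALDH1A3 it was -4.57 with K3R and -1.40 with WT, for NID2 -2.05 and -0.78, for DSC3 -6.13 and -3.61, and for GASK1B 1.88 and 3.04. The active libraries of H1299 together held only 13 counts for ALDH1A3, 90 for NID2, 2 for DSC3 and 261 for GASK1B. None of these genes was called for K3R minus WT, so their gaps do not show that the constructs differ. K3R minus WT called no gene in A549 (edgeR quasi-likelihood test, 165 genes at an unadjusted p under 0.05) and in H1299 called ALDH1A1 alone, a retinal dehydrogenase gene at 0.464 CPM in active and 0.346 CPM in Ctr cells. ALDH1A1 was also the only gene whose K3R minus WT change differed between the lines. These K3R minus WT tests had a term for batch within each line but none for the library number, so the pairing was not used. The WT and K3R values are not shown to be equal by the few calls, and their libraries of the same number were close over all genes. With WT alone 7 genes passed for the difference and with K3R alone 9, and TFPI, SHROOM3 and FAM20C were in both.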

How the data were processed

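The deposited table holds raw read counts per gene for 59385 genes, and the authors' steps, per the submitters' processing notes, used FastQC, cutadapt, STAR and featureCounts on GRCh38. Neither their versions nor the annotation and strand setting were stated there. Samples were grouped by their labels. Counts were tested with the quasi-likelihood test of edgeR 4.0.16 (R 4.3.3, limma 3.58.1) after filterByExpr and TMM scaling, with 4 line-by-arm groups, batch within each line, 12 residual degrees of freedom, and Benjamini-Hochberg adjustment over 17828 genes at 0.05. CPM are TMM-scaled unless said otherwise, and log2 CPM used a prior count of 2. A standard error is the log2 change divided by the square root of F. Counting floors and 95% intervals cover counting error only.

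The members, lists and tests were chosen with earlier results of these data known. Named genes were the 10 largest positive and 10 largest negative differences with at least 5 CPM in a group and the same sign at all 3 library numbers, the 5 strongest shared genes per direction, all opposite genes, and up to 3 members of each list. A further 10 per direction were chosen by lowest p after the values were seen. Library numbers were taken to pair the samples, since the labels tie them to a shared batch and every correlation of same-numbered deviations was above 0.1 (0.32 to 0.67 in A549, 0.14 to 0.50 in H1299). Batch was not removed from these deviations, so they cannot tell a pairing by number from a batch effect. The counts reported first leave this pairing out, and those with the replicate block use it. On simulated counts the test recovered 13% of 1.5-fold and 87% of 3-fold changes of the difference between lines (100 genes each). It made 1 false call among 17293 unchanged genes. The simulated libraries were independent, with no batch effect and no likeness between libraries of the same number. Changes were placed in active H1299 cells only, in genes with a mean of at least 1 CPM in both lines. These rates may therefore not hold for the real libraries. Alternatives were DESeq2 1.42.0, other scaling, filters, batch terms and poolings, and leaving out each library. Symbols matched 1 gene of GENCODE 29 for 15476 genes and 1 RefSeq promoter window for 8673. Some named genes are not reported here.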

Additional observations from a re-analysis of the deposited data

Results flagged for a closer look

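For each of the named genes below the response to SIRT6 differed between A549 and H1299 by a test of the difference itself (edgeR quasi-likelihood test, adjusted p under 0.05), given as the log2 change in A549 minus that in H1299. By size, the positive differences were 4.45 for DSC3, 3.51 for SLFN11, 3.41 for METTL7B, 3.34 for GPX1, 3.04 for ALDH1A3, 2.99 for SLC19A3, 2.86 for NID2, 2.83 for ZNF704, 2.41 for BACH2 and 2.40 for VSTM1. The negative ones were -7.78 for GLP2R, -5.59 for TNS1, -5.22 for JAKMIP3, -4.73 for VAV1, -4.44 for WNT7B, -4.13 for FAM20C, -3.42 for GASK1B, -3.39 for SFMBT2, -3.14 for SERPINF2 and -3.00 for SERINC2. The fitted values of GLP2R and JAKMIP3 depend on the prior count, since their H1299 Ctr libraries are at 0.

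Among genes at 5 CPM or more in both lines the differences were 2.02 for MVB12B, 1.72 for SHROOM3, 1.85 for RHOBTB1, 1.83 for BMP6, 1.37 for FOXC1, 1.34 for SEMA4D, 1.29 for MGMT, 1.13 for TNS3, 1.00 for SGK1 and 0.88 for HLA-B, and -2.19 for PDGFA, -2.03 for SEMA3E, -1.71 for TFPI, -1.53 for MYO5B, -1.12 for FAM3C and -0.83 for ZMIZ1. Among list members they were 1.51 for NMNAT3, 1.199 for BMPR1B, -2.99 for COL5A1, -2.71 for PRICKLE1, -2.37 for FGFR3, -1.96 for DHRS3, -1.54 for TGFB2, -0.99 for LAMA5, -0.96 for PLXND1, -0.90 for FBN1, -0.68 for HSPG2 and -0.62 for TGFBR2.

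Single active libraries stood apart from the other 5 of their line in 7 of 114 tests on 57 genes, where chance gives about 1 in 20. The library WT 1-1 of H1299 stood apart for DSC3 (0.0870 CPM) and METTL7B (0.0435 CPM). These values rest on 2 counts for DSC3 and 1 for METTL7B, with the other 5 active libraries at 0. WT 2-2 of H1299 stood apart for FAM20C (10.8 CPM) and DHRS3 (12.8 CPM). In A549, K3R 1-1 stood apart for FAM20C (68.7 CPM) and PLXND1 (169 CPM), and WT 2-2 for JAKMIP3 (20.3 CPM).

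In the K3Q libraries, which enter only the alternative with all 24 libraries, SIRT6 averaged 1548 CPM in A549 and 13121 CPM in H1299 (CPM of library totals).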

How the results depend on the processing

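Counts of genes passing are given in the order difference between lines, A549, H1299, both lines in the same direction, and both in opposite directions; the values as reported were 169, 53, 1092, 16 and 2. They were 62, 33, 687, 7 and 1 without a batch term, 1052, 698, 3085, 226 and 47 with the replicate block, which pairs the libraries by number, 428, 200, 1658, 50 and 8 with DESeq2, 22, 7, 343, 3 and 0 in batch 2 alone, 7, 4, 273, 2 and 0 with 1-1 and 1-2 summed, 7, 1, 239, 1 and 0 with WT alone, 9, 1, 228, 1 and 0 with K3R alone, and 7, 1, 251, 1 and 0 with WT and K3R summed by number. They were 688, 399, 1637, 116 and 34 without a filter on low counts, 709, 564, 1633, 122 and 43 in biological replicate 1 alone, 111, 21, 894, 7 and 2 with WT and K3R as separate groups, 255, 120, 1356, 39 and 5 with all 24 libraries, and 364, 92, 1579, 30 and 3 with the sum and the replicate block. A single batch term for both lines left 10 genes in the same direction, and a filter at 1 CPM in both lines left 25 in A549. The cause of these shifts was not tested. Scaling by RLE gave 175, 50, 1085, 17 and 2. Leaving out 1 library at a time gave 67 to 198 for the difference, 13 to 60 in A549, 459 to 1219 in H1299, 6 to 21 in the same direction and 0 to 3 in opposite directions. Fewest H1299 calls were left without Ctr 2-2 (459) and Ctr 1-2 (536), and in A549 without Ctr 1-1 (13), Ctr 1-2 (22), Ctr 2-2 (26), WT 1-1 (27), WT 1-2 (29), K3R 1-2 (29) and K3R 1-1 (30). For the same direction 6 were left without A549 Ctr 1-1, 7 without A549 Ctr 1-2, 8 without A549 Ctr 2-2 or WT 1-1, and 10 without A549 K3R 1-1. The correlation of the line responses moved to 0.356 over genes with at least 5 CPM. The ATP8B3 interaction, that is, its difference between lines, which did not pass, changed sign to -0.042 in biological replicate 1 alone, and ran from -0.0297 (without H1299 Ctr 2-2) to 0.16 with 1 library left out. Of the other values of named genes under an alternative, 1514 kept their direction and side of the threshold, 368 lost the call and 10 gained it. With 3 Ctr libraries per line, genes at a few counts in H1299 limit what can be told of the largest differences.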
